A study of Mus musculus with 8 samples.

Results

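The 49 DNA replication genes described here cover origin licensing, the replicative helicase, primase and the replicative polymerases, the sliding clamp and its loader, single-strand binding, deoxynucleotide supply and chromatin assembly. They were chosen by name from known function, with earlier results of these data known. All 49 were found among the 18631 genes listed in each library. Poly(A) RNA was sequenced from a pair of mouse kidney epithelial cell lines. The Pkd1-/- line null(PN) is called null below, and the Pkd1+/- line pkd1(PH) is called heterozygous. Pkd1 encodes polycystin-1, the protein altered in most families with autosomal dominant polycystic kidney disease. Null cells received THZ1 or DMSO, and heterozygous cells received THZ1 or DMSO, with 2 libraries in each of the 4 groups. THZ1 is a covalent inhibitor of the kinase CDK7, given at 50 nM for 6 h, and DMSO is its solvent. All groups grew in DMEM-F12 with 3% serum, antibiotics, insulin-transferrin-selenium, interferon gamma, nystatin and the thyroid hormone T3. Each genotype is represented by 1 line, so genotype and line cannot be told apart. In RNA from whole cultures, fewer cells in S phase and less RNA per cell cannot be told apart either.

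Chromosomes are copied from many origins. In G1 the origin recognition complex, Cdc6 and Cdt1 load the MCM helicase onto DNA, and in S phase Cdc45 and GINS join it to open the strands. Primase with DNA polymerase alpha lays down primers, replication factor C loads the clamp PCNA, polymerases delta and epsilon extend the strands, and Fen1 and DNA ligase 1 join the lagging strand pieces. Many of these genes are transcribed around the G1/S boundary under E2F factors, which the retinoblastoma family holds in check. CDK7 acts on RNA polymerase II as part of the general factor TFIIH and also activates cell cycle kinases. Cyst-lining cells in polycystic kidney disease are known for abnormal proliferation.

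Levels are FPKM, fragments scaled by transcript length and library size. Comparisons of level between genes rest on those lengths, and no source used here names the annotation behind them. Depth was estimated from the steps between low values at 17.3 to 18.3 M (mega) fragments per library. Replicates of a group correlated across genes at a Pearson r of 0.9973 to 0.9983. Pkd1 was at 1.22 and 1.21 FPKM in null THZ1, 1.69 and 1.32 in null DMSO, 3.71 and 4.2 in heterozygous THZ1, and 4.58 and 5.3 in heterozygous DMSO libraries. It was lower in every null library, though not at 0. The 10 kidney epithelial markers summed to 767 to 775 FPKM in null THZ1, 807 to 815 in null DMSO, 1077 to 1108 in heterozygous THZ1 and 1045 to 1129 in heterozygous DMSO libraries, with Cdh1, Epcam and Cldn7 under 1 FPKM in all of them. The 9 fibroblast and mesenchyme markers summed to 39.9 to 43.0 FPKM in null THZ1, 33.7 to 33.8 in null DMSO, 15.3 to 15.4 in heterozygous THZ1 and 15.6 to 16.7 in heterozygous DMSO libraries, with 7 of the 9 under 1 FPKM. The 7 leukocyte markers summed to 7.95 to 8.27 FPKM in null THZ1, 8.45 to 9.35 in null DMSO, 10.85 to 12.25 in heterozygous THZ1 and 12.53 to 12.79 in heterozygous DMSO libraries, with Ptprc at most at 0.27 and Adgre1 and Cd3e at 0 in all. The 5 endothelial markers summed to at most 0.2 FPKM. The epithelial, mesenchyme and leukocyte sums moved with the line, and their part in the differences below was not tested. Col1a1 moved most within the mesenchyme list. It was at 23.91 and 23.81 FPKM in null THZ1 and 15.72 and 17.29 in null DMSO libraries. In heterozygous libraries it was at 3.1 and 3.55 with THZ1 and 2.9 and 3.03 with DMSO. The leukocyte marker Csf1r was lower in every null library. Cd68 went against that sum under THZ1, at 4.82 and 3.94 FPKM in null against 3.09 and 2.7 in heterozygous libraries. Within the epithelial list Cdh16 went against the sum, at 313.64 and 299.39 FPKM in null THZ1, 259.03 and 268.94 in null DMSO, 185.4 and 182.56 in heterozygous THZ1, and 175.73 and 188.46 in heterozygous DMSO libraries.

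Upstream sequences are shown because E2F is the factor family best known for these genes. A RefSeq table of GRCm38.p6 held windows from 250 bases before to 50 bases after a start for 41 of the 49 genes. There were 50 windows, since some genes have more than 1 start. Both strands were searched for the E2F letter forms TTTCCCGC, TTTGGCGC, TTTCGCGC and TTTGCCGC. At least 1 form stood in the windows of 16 of the 41 genes (39.0%), beside 446 of the 8689 tested genes with a window (5.13%) and 704 of all 27025 genes with a window (2.6%). The letters CCAAT stood in 25 of the 41 (61.0%), beside 43.9% of tested genes and 41.1% of all genes. A match is a description of letters, not of a bound site. For the 9 genes with a form that lay before the start together with the 10 bases on each side of it, those 28 bases are printed for 1 form on the gene's strand, with the form, or its reverse complement, in capitals. In Mcm5 and Mcm6 a second form on the other strand overlaps the printed one. Mcm7 and Uhrf1 each have a further window, at another start, that holds no form.
Cdc6: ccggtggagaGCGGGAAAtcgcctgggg
Gins3: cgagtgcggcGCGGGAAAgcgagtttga
Mcm5: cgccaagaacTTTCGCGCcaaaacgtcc
Mcm6: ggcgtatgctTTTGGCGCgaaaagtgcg
Mcm7: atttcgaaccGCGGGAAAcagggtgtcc
Orc1: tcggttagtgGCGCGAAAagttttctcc
Orc3: catgcctcccTTTCCCGCacgccccgcc
Pola1: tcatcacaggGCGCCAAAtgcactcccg
Uhrf1: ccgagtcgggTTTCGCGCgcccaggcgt

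The centre of the form lay 134 bases before the start in Cdc6 (chr11:98908003-98908030, plus strand) and 181 in Uhrf1 (chr17:56304118-56304145, plus strand). It lay 149 bases before the start in Mcm5 (chr8:75109346-75109373, plus strand) and 106 in Mcm6 (chr1:128359798-128359825, minus strand). In Orc1 (chr4:108579417-108579444, plus strand) it lay 23 bases before the start, the nearest of the 9. The 250 bases before the start of Rfc4 (chr16:23127731-23127980, minus strand) and of Orc3 (chr4:34614943-34615192, minus strand) are shown as the genes with the largest and the smallest difference between the lines under DMSO. Capitals mark an E2F form or CCAAT. The Rfc4 window holds neither, and the Orc3 window holds 1 E2F form.
Rfc4: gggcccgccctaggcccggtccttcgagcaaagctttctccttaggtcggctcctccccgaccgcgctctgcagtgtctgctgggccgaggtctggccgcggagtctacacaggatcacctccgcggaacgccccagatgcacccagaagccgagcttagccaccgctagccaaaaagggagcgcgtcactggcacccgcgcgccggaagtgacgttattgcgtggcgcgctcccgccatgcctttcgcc
Orc3: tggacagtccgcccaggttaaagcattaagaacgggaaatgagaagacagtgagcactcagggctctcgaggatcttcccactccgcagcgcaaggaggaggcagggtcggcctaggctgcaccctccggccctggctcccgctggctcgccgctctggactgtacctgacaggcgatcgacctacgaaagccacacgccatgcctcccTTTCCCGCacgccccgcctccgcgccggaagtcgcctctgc

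The replication genes were far lower in null than in heterozygous cells, already without drug. Their FPKM summed to 1384 and 1432 in null THZ1, 1623 and 1541 in null DMSO, 3188 and 3125 in heterozygous THZ1, and 3064 and 3103 in heterozygous DMSO libraries. The median gene averaged 20.0 FPKM in null THZ1, 23.5 in null DMSO, 49.7 in heterozygous THZ1 and 45.4 in heterozygous DMSO cells. Pcna had the highest level and Orc1 the lowest in every group.

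**Figure D1:**
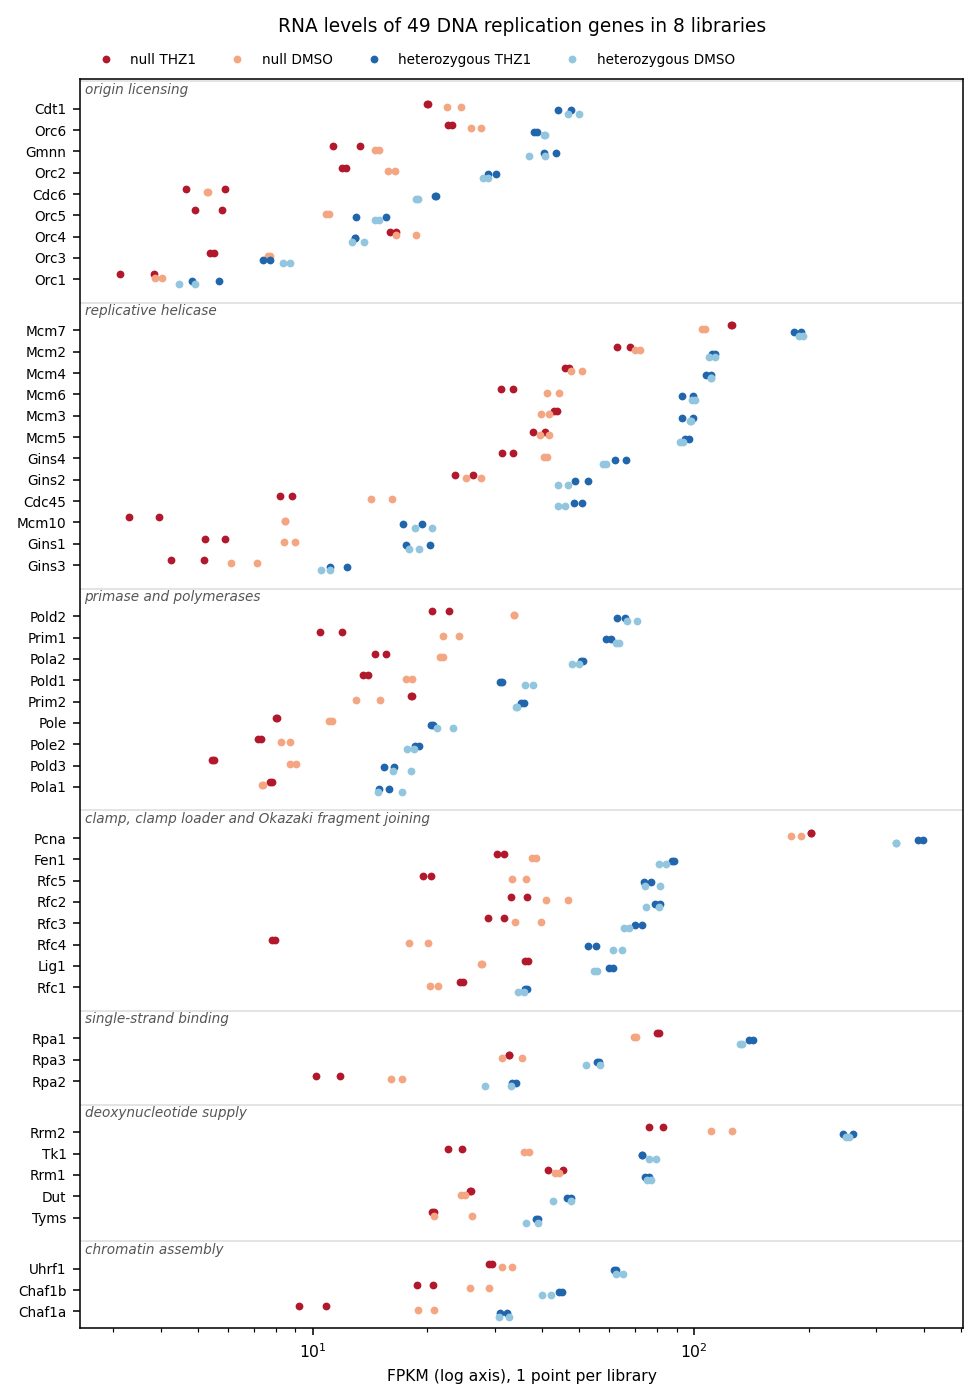
FPKM of each of the 49 genes on a log axis, with 1 point per library, by role and coloured by group. Within each treatment the null points lie to the left of the heterozygous points, except those of Orc4, which lie to the right. THZ1 moves the null points of Mcm10, Prim1 and Rfc4 further left, while the heterozygous points of both treatments lie close together.

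The first comparison asks how far the lines differ without drug. Differences are log2 differences of null minus heterozygous values of log2(FPKM + 1), a scale that shrinks differences between low values, with limma's standard error (SE) and a p adjusted over the 10731 genes tested. All 49 replication genes passed the filter of a mean of 1 FPKM. Under DMSO 46 of them were lower in null cells, 1 was higher and 2 were not called at an adjusted p of 0.05. Among all tested genes 41.0% were called lower and 29.0% higher. The median log2 difference was -0.93 over the replication genes and -0.07 over all tested genes. In 48 of the 49 genes both null DMSO libraries lay below both heterozygous DMSO libraries, an order found in 48.7% of all tested genes. The 47 calls held under each of the 14 other ways of scaling, filtering or leaving out a library.

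Among the 9 licensing genes, 6 were lower in null cells under DMSO, 1 was higher and 2 were not called. Cdc6, the ATPase that helps load the helicase, was at 5.28 and 5.31 FPKM in null DMSO libraries, against 18.85 and 18.61 in heterozygous DMSO libraries. The groups lay far apart, and the null mean was 28.3% of the heterozygous one (log2 difference -1.65 ± 0.08 SE, limma adjusted p = 2.19e-09). Gmnn, whose product geminin blocks the loading factor Cdt1, differed by -1.33, and Cdt1 itself by -1.01. Of the origin recognition complex, which marks origins, Orc2 differed by -0.78, Orc6 by -0.58 and Orc5 by -0.40. Orc4 went the other way, with 18.72 and 16.54 FPKM in null DMSO libraries and 13.66 and 12.68 in heterozygous DMSO libraries. Of the 49 it alone was called higher in the null line (0.39 ± 0.07 SE, limma adjusted p = 0.000162). Orc3 was at 7.72 and 7.64 FPKM in null DMSO and 8.35 and 8.73 in heterozygous DMSO libraries. These libraries did not overlap, but the difference of -0.14 was not called (limma adjusted p = 0.0836). Orc1 differed by -0.20 (limma adjusted p = 0.0828), at 3.85 and 4.03 FPKM in null DMSO against 4.45 and 4.91 in heterozygous DMSO libraries.

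All 12 helicase genes were lower in null cells under DMSO. Cdc45, which joins MCM at the start of S phase, was at 16.18 and 14.19 FPKM in null DMSO libraries, against 45.76 and 43.94 in heterozygous DMSO libraries (-1.50 ± 0.06 SE, limma adjusted p = 5.4e-10). Its null mean was 33.9% of the heterozygous mean. Of the 6 MCM ring subunits, Mcm3 differed by -1.25, Mcm6 by -1.21, Mcm5 by -1.18, Mcm4 by -1.16, Mcm7 by -0.84 and Mcm2 by -0.64. Mcm10, a factor needed to activate the loaded helicase, differed by -1.11. Of the GINS subunits, Gins1 averaged 47.2% of the heterozygous level, Gins2 differed by -0.76 and Gins3 by -0.63. Gins4 had the smallest difference of this role, with 40.47 and 41.15 FPKM in null DMSO and 58.81 and 57.85 in heterozygous DMSO libraries (-0.50 ± 0.05 SE, limma adjusted p = 1.15e-06). Even there the groups did not overlap.

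All 9 primase and polymerase genes were lower as well, within a narrow range of -0.87 to -1.41. Prim1, the catalytic primase subunit, was at 24.26 and 21.95 FPKM in null DMSO libraries, against 63.68 and 62.36 in heterozygous DMSO libraries (-1.41 ± 0.06 SE, limma adjusted p = 9.09e-10). Prim2, the other primase subunit, had 14.98 and 13.03 FPKM in null DMSO and 34.04 and 34.33 in heterozygous DMSO libraries (-1.23 ± 0.06 SE, limma adjusted p = 1.81e-09). The null means of Prim1 and Prim2 were 36.7% and 41.0% of the heterozygous means. The polymerase alpha subunits Pola1 and Pola2 differed by -1.01 and -1.13. The polymerase delta subunits Pold1, the catalytic one, and Pold2 averaged 48.6% and 48.9% of the heterozygous levels. Pold3, a further delta subunit, had the smallest difference of the role, with 9.06 and 8.73 FPKM in null DMSO and 18.14 and 16.2 in heterozygous DMSO libraries (-0.87 ± 0.07 SE, limma adjusted p = 1.39e-07). The polymerase epsilon subunits Pole and Pole2 averaged 50.1% and 47.1% of the heterozygous levels.

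All 8 genes of the clamp, its loader and lagging strand joining were lower in null cells. Rfc4, a small clamp loader subunit, had the largest difference of the 49 genes. It was at 20.03 and 17.86 FPKM in null DMSO libraries, against 64.82 and 61.43 in heterozygous DMSO libraries (-1.69 ± 0.06 SE, limma adjusted p = 1.09e-10). Rfc1, the large subunit, was at 20.27 and 21.26 FPKM in null DMSO and 35.74 and 34.52 in heterozygous DMSO libraries (-0.73 ± 0.05 SE, limma adjusted p = 2.74e-08). The remaining loader subunits lay between them, with Rfc5 at -1.14, Rfc3 at -0.84 and Rfc2 at -0.82. The clamp Pcna was at 190.93 and 179.74 FPKM in null DMSO and 337.7 and 338.16 in heterozygous DMSO libraries, a difference of -0.86. The flap nuclease Fen1 differed by -1.10 and the ligase Lig1 by -0.96.

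The 3 subunits of replication protein A, which coats single-stranded DNA, were also lower in null cells. Rpa1 was at 70.4 and 69.74 FPKM in null DMSO and 133.4 and 132.31 in heterozygous DMSO libraries (-0.91 ± 0.04 SE, limma adjusted p = 4.9e-10). Rpa3 was at 35.4 and 31.36 FPKM in null DMSO and 52.23 and 56.8 in heterozygous DMSO libraries (-0.69 ± 0.06 SE, limma adjusted p = 3.01e-07). Rpa2 lay between them at -0.85. The groups did not overlap in any of the 3 subunits.

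All 5 genes of deoxynucleotide supply were lower. Rrm2, the regulated small subunit of ribonucleotide reductase, was at 125.42 and 111.09 FPKM in null DMSO libraries, against 250.35 and 255.69 in heterozygous DMSO libraries (-1.09 ± 0.06 SE, limma adjusted p = 5.02e-09). The large subunit Rrm1 differed by -0.79. Thymidine kinase, Tk1, differed by -1.07, and the dUTPase Dut, which keeps uracil out of DNA, by -0.84. Tyms, thymidylate synthase, had the smallest difference of the role, with 26.16 and 20.8 FPKM in null DMSO and 39.05 and 36.25 in heterozygous DMSO libraries (-0.67 ± 0.08 SE, limma adjusted p = 8.27e-06). Its null libraries spread more widely than those of the other 4 genes relative to their level.

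The 3 chromatin assembly genes were lower in null cells too. Uhrf1, which recruits the maintenance methylase Dnmt1 to newly copied DNA, was at 31.38 and 33.27 FPKM in null DMSO and 65.19 and 62.26 in heterozygous DMSO libraries (-0.96 ± 0.05 SE, limma adjusted p = 1.7e-09). Chaf1a and Chaf1b are subunits of CAF-1, the chaperone that deposits histones behind the fork. Chaf1b was at 28.98 and 25.91 FPKM in null DMSO and 39.91 and 42.14 in heterozygous DMSO libraries (-0.56 ± 0.06 SE, limma adjusted p = 3.46e-06), and Chaf1a differed by -0.65.

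**Figure D2:**
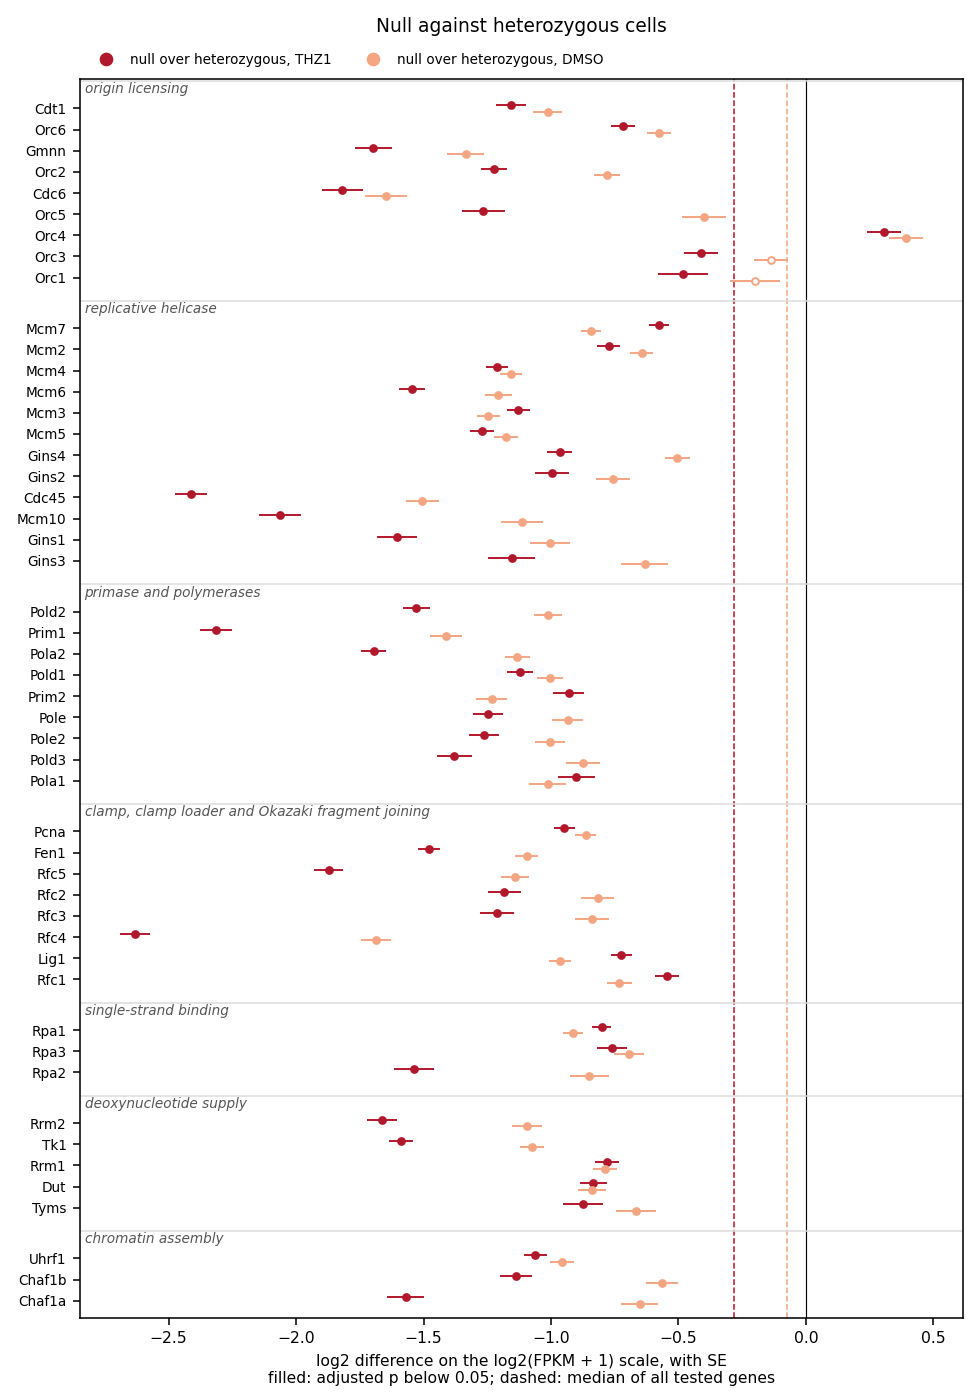
Log2 difference of null minus heterozygous cells for each gene, under THZ1 (dark red) and under DMSO (light), with limma's SE as bars, filled points for calls at an adjusted p below 0.05 and a dashed line at the median of all tested genes. The genes run from -1.69 for Rfc4 to 0.39 for Orc4 under DMSO, and from -2.63 to 0.31 for the same genes under THZ1.

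THZ1 in null cells split the replication genes instead of moving them together. As deposited, 31 of the 49 genes were lower under THZ1, 6 were higher and 12 were not called. Among all tested genes 51.1% were called lower and 24.6% higher, and the median of all tested genes was -0.17, against -0.27 for the replication genes. This comparison depends on scaling. Libraries were also scaled by the median of ratios, which evens out the typical gene between libraries. Both kinds of value are relative to the other RNA of a library. Rises and falls given below are thus relative ones, and a change of all RNA together would not show. Under that scaling the all-gene median was 0.03 and that of the replication genes -0.04. Then 21 replication genes were lower and 15 higher, beside 36.7% and 40.7% of all tested genes. Read against these shares, the counts do not set the replication genes apart from other genes. The same 21 genes were lower under both scalings, and the same 6 were higher under both. Below, the median-of-ratios value of these 27 genes stands with the deposited one.

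The sharpest fall of the 49 genes was that of Rfc4. Rfc4 was at 7.81 and 7.97 FPKM in null THZ1 libraries, against 20.03 and 17.86 in null DMSO libraries (-1.16 ± 0.06 SE, limma adjusted p = 3.58e-09; -0.96 by median of ratios). It fell to 41.6% of its DMSO mean, while Rfc1, the large subunit of the same loader, rose. Rfc1 was at 24.29 and 24.76 FPKM in null THZ1 and 20.27 and 21.26 in null DMSO libraries (0.23 ± 0.05 SE, limma adjusted p = 0.000709; 0.45 by median of ratios). Rfc5 fell with Rfc4 (-0.77, and -0.55 by median of ratios). Rfc2 and Rfc3 were lower as deposited, at -0.32 and -0.27, but were not called by median of ratios, at -0.10 and -0.04. Of the genes acting after the loader, Lig1 rose to 36.66 and 35.96 FPKM in null THZ1, against 27.65 and 27.86 in null DMSO libraries (0.38 ± 0.04 SE, limma adjusted p = 3.57e-06; 0.60 by median of ratios). It had the largest rise of the 49 genes as deposited. Pcna rose by 0.13 as deposited and 0.36 by median of ratios, but the deposited call was lost without null DMSO replicate 2 (limma adjusted p = 0.120) and under library total scaling (0.0439, limma adjusted p = 0.302). Fen1 was lower as deposited at -0.29 and not called by median of ratios at -0.07.

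Primase showed the same split within 1 enzyme. Prim1 was at 10.43 and 11.95 FPKM in null THZ1 libraries, against 24.26 and 21.95 in null DMSO libraries (-0.98 ± 0.06 SE, limma adjusted p = 2.6e-08; -0.77 by median of ratios). Prim2 was at 18.18 and 18.11 FPKM in null THZ1 and 14.98 and 13.03 in null DMSO libraries (0.35 ± 0.06 SE, limma adjusted p = 0.000135; 0.57 by median of ratios). Catalytic primase thus fell and its partner subunit rose, with no overlap in either gene. Pold3 was at 5.45 and 5.52 FPKM in null THZ1 and 9.06 and 8.73 in null DMSO libraries (-0.61 ± 0.07 SE, limma adjusted p = 3.35e-06; -0.41 by median of ratios). The other falls under both scalings were those of Pold2 at -0.61, Pola2 at -0.51, Pole at -0.42 and Pold1 at -0.36 as deposited, and -0.39, -0.29, -0.22 and -0.14 in the same order by median of ratios. Pole2 was lower as deposited at -0.20 and not called at 0.0031 by median of ratios. Pola1 was at 0.06 as deposited, not called, and at 0.27 and called higher by median of ratios.

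Of the helicase genes, 5 of 12 fell under both scalings. Mcm10 was at 3.29 and 3.95 FPKM in null THZ1 libraries, against 8.48 and 8.47 in null DMSO libraries (-1.04 ± 0.08 SE, limma adjusted p = 1.58e-07; -0.86 by median of ratios). Cdc45 fell to 8.23 and 8.83 FPKM in null THZ1, against 16.18 and 14.19 in null DMSO libraries (-0.76 ± 0.06 SE, limma adjusted p = 2.53e-07; -0.55 by median of ratios). Both genes act when the loaded helicase is switched on. Gins1, Gins3 and Mcm6 fell by 0.57, 0.42 and 0.39 as deposited and by 0.37, 0.22 and 0.17 in the same order by median of ratios. Mcm7 rose, with 125.89 and 124.89 FPKM in null THZ1 and 106.69 and 105.18 in null DMSO libraries (0.24 ± 0.04 SE, limma adjusted p = 0.000103; 0.47 by median of ratios). The rest of the MCM ring turned on the scaling. Mcm2 was called lower at -0.12 as deposited, though not without null DMSO replicate 2 (limma adjusted p = 0.150) or null THZ1 replicate 1 (0.286), and called higher at 0.11 by median of ratios. Mcm3, Mcm4 and Mcm5 were not called as deposited at 0.09, -0.08 and -0.04, and were called higher by median of ratios at 0.32, 0.14 and 0.18. Gins4 was at 31.32 and 33.46 FPKM in null THZ1 and 40.47 and 41.15 in null DMSO libraries, lower as deposited at -0.33 and not called by median of ratios at -0.10. Gins2 was not called under either scaling, at -0.08 and 0.14.

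Of the licensing genes, Orc5, Orc3 and Orc2 fell under both scalings. Orc5 was at 4.91 and 5.79 FPKM in null THZ1 libraries, against 11.04 and 10.85 in null DMSO libraries (-0.92 ± 0.09 SE, limma adjusted p = 6.67e-07; -0.72 by median of ratios). Orc3 was at 5.38 and 5.52 FPKM in null THZ1 and 7.72 and 7.64 in null DMSO libraries (-0.43 ± 0.07 SE, limma adjusted p = 6.35e-05; -0.23 by median of ratios), and Orc2 fell by 0.39 as deposited and by 0.17 by median of ratios. Cdc6, so low in null cells, was at 4.65 and 5.89 FPKM in null THZ1 and 5.28 and 5.31 in null DMSO libraries. Its THZ1 libraries lay on both sides of the DMSO ones, and it was not called as deposited (-0.01, limma adjusted p = 0.892) but called higher by median of ratios at 0.18. Gmnn at -0.25, Cdt1 at -0.22 and Orc6 at -0.22 were lower as deposited and not called by median of ratios. Orc1 at -0.14 and Orc4 at -0.11 were not called under either scaling.

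Replication protein A also split. Rpa2 was at 10.22 and 11.77 FPKM in null THZ1 libraries, against 17.14 and 16.03 in null DMSO libraries (-0.55 ± 0.08 SE, limma adjusted p = 2.65e-05; -0.34 by median of ratios). Rpa1 rose, with 79.91 and 81.15 FPKM in null THZ1 and 70.4 and 69.74 in null DMSO libraries (0.20 ± 0.04 SE, limma adjusted p = 0.000399; 0.43 by median of ratios). Rpa3 overlapped between the groups, at 32.8 and 32.68 FPKM in null THZ1 and 35.4 and 31.36 in null DMSO libraries, and turned from -0.02, not called, to 0.20, called higher, by median of ratios.

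Of the deoxynucleotide genes, Tk1 and Rrm2 fell under both scalings. Tk1 was at 24.59 and 22.7 FPKM in null THZ1 libraries, against 37.01 and 35.87 in null DMSO libraries (-0.60 ± 0.05 SE, limma adjusted p = 1.58e-07; -0.38 by median of ratios). Rrm2 was at 76.03 and 83.01 FPKM in null THZ1 and 125.42 and 111.09 in null DMSO libraries (-0.57 ± 0.06 SE, limma adjusted p = 1.92e-06; -0.34 by median of ratios). Rrm1, the large reductase subunit, was at 41.53 and 45.23 FPKM in null THZ1 and 44.37 and 43.12 in null DMSO libraries, with overlap. It was not called as deposited at -0.01 and called higher by median of ratios at 0.21. Dut was at 25.82 and 26.04 FPKM in null THZ1 and 25.09 and 24.43 in null DMSO libraries. It was likewise not called as deposited, at 0.06, and called higher by median of ratios, at 0.29. Tyms was not called under either scaling, with 20.61 and 20.76 FPKM in null THZ1 and 26.16 and 20.8 in null DMSO libraries.

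Both CAF-1 subunits fell under both scalings. Chaf1a was at 9.2 and 10.85 FPKM in null THZ1 libraries, against 18.91 and 20.81 in null DMSO libraries (-0.92 ± 0.07 SE, limma adjusted p = 1.41e-07; -0.71 by median of ratios). Chaf1b was at 18.83 and 20.74 FPKM in null THZ1 and 28.98 and 25.91 in null DMSO libraries (-0.45 ± 0.06 SE, limma adjusted p = 2.12e-05; -0.23 by median of ratios). Uhrf1, at 29.47 and 28.93 FPKM in null THZ1 and 31.38 and 33.27 in null DMSO libraries, was called lower as deposited at -0.14 and not called by median of ratios at 0.08.

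In heterozygous cells few replication genes were called under THZ1. As deposited 2 of the 49 were lower, 2 were higher and 45 were not called, beside 10.3% of all tested genes called lower and 12.2% higher. The median log2 change was 0.03 over the replication genes and 0.01 over all tested genes. Pold1 was at 30.92 and 31.33 FPKM in heterozygous THZ1 libraries, against 35.96 and 37.94 in heterozygous DMSO libraries (-0.24 ± 0.05 SE, limma adjusted p = 0.00706). Rfc4 was at 52.68 and 55.47 FPKM in heterozygous THZ1 and 64.82 and 61.43 in heterozygous DMSO libraries (-0.22 ± 0.06 SE, limma adjusted p = 0.0202). Rfc4 was thus the gene with the largest fall in null cells and 1 of the 2 called lower in heterozygous cells. Pcna was at 398.72 and 386.71 FPKM in heterozygous THZ1 and 337.7 and 338.16 in heterozygous DMSO libraries (0.22 ± 0.04 SE, limma adjusted p = 0.00408), and Lig1 rose by 0.13 (limma adjusted p = 0.0389). These 4 were the called genes, chosen after their values were seen, and Lig1 was not called by median of ratios. Without heterozygous THZ1 replicate 1 limma called 0 of the 49 either way, with 2 lower and 2 higher at an unadjusted p under 0.05. Without heterozygous THZ1 replicate 2 or heterozygous DMSO replicate 1 it called 1 lower and 1 higher, and without heterozygous DMSO replicate 2 it called 2 lower and 1 higher. Prim1 was at 60.42 and 58.68 FPKM in heterozygous THZ1 and 63.68 and 62.36 in heterozygous DMSO libraries, and Cdc45 at 48.57 and 50.89 FPKM in heterozygous THZ1 and 45.76 and 43.94 in heterozygous DMSO libraries. Neither was called (limma adjusted p = 0.382 for Prim1 and 0.117 for Cdc45).

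**Figure D3:**
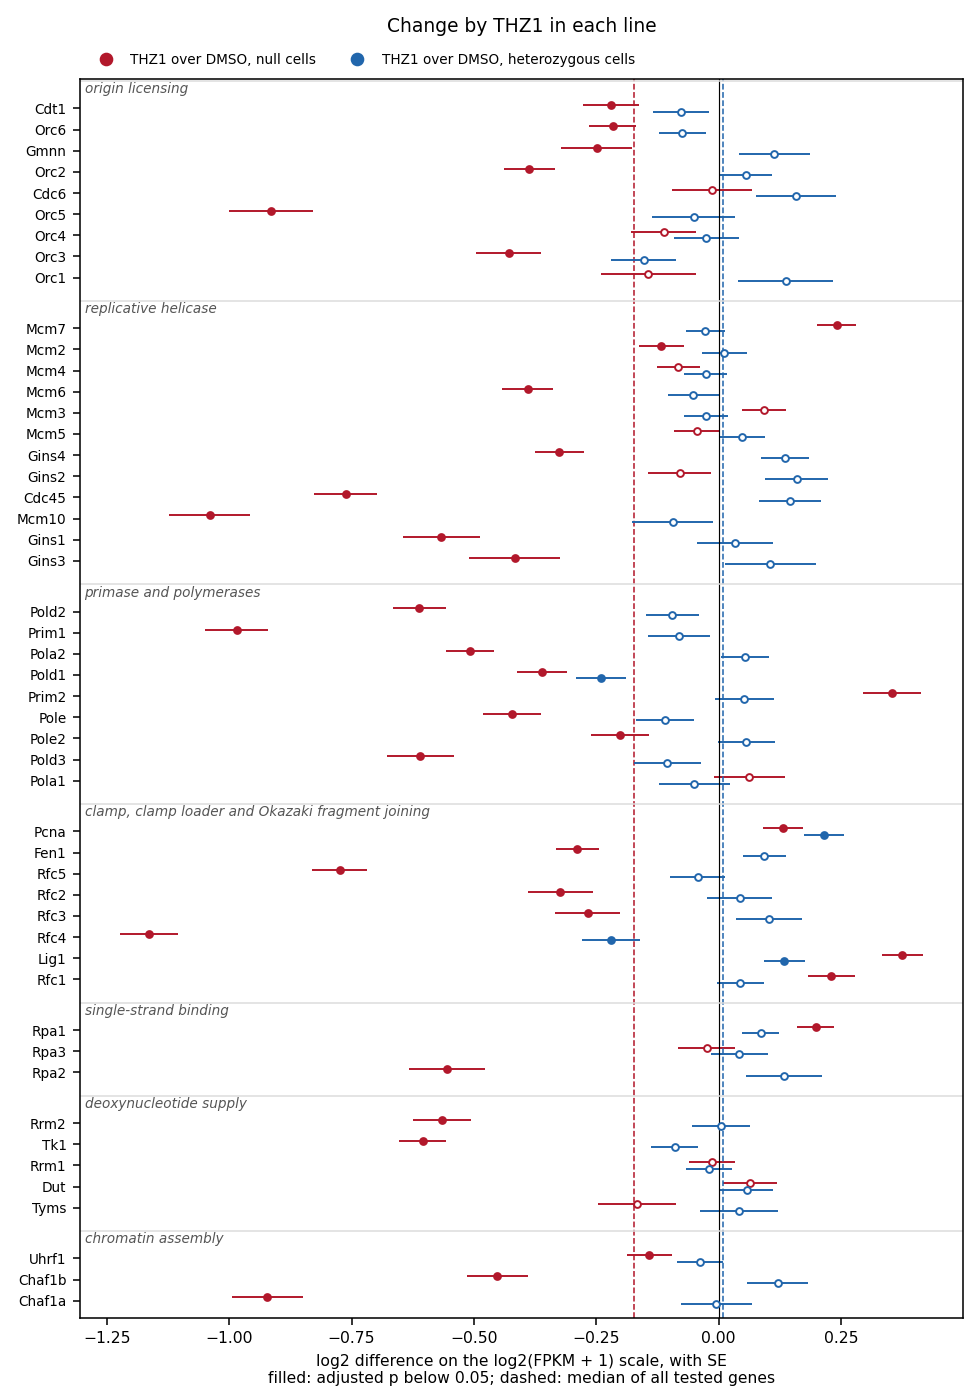
Log2 change by THZ1 for each gene in null cells (red) and heterozygous cells (blue), as deposited, with limma's SE as bars, filled points for calls at an adjusted p below 0.05 and a dashed line at the median of all tested genes. Null cells spread from -1.16 for Rfc4 to 0.38 for Lig1 around a median of all genes of -0.17, while heterozygous cells stay between -0.24 and 0.22.

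The difference between the THZ1 responses, the change in null cells minus that in heterozygous cells, was tested as an interaction in the same fit. As deposited it was negative for 27 of the 49 genes, positive for 4 and not called for 18, beside 45.1% negative and 15.1% positive of all tested genes. Medians were -0.28 over the replication genes and -0.19 over all tested genes. Scaled by median of ratios, 19 were negative and 10 positive, beside 29.1% and 32.4%, with medians of -0.09 and 0.02. The same 19 genes were negative and the same 4 positive under both. The most negative were Mcm10 at -0.95, Rfc4 at -0.94, Chaf1a at -0.92, Cdc45 at -0.91, Prim1 at -0.90 and Orc5 at -0.86, each called under all 14 alternatives. Under the other scaling they stood at -0.75, -0.73, -0.70, -0.69, -0.68 and -0.66. The positive ones were Prim2 at 0.30, Mcm7 at 0.27, Lig1 at 0.24 and Rfc1 at 0.19. Of these Rfc1 was lost in 6 of the 14 alternatives, among them leaving out null DMSO replicate 1 (limma adjusted p = 0.105), null THZ1 replicate 2 (0.0704), heterozygous THZ1 replicate 1 (0.0709) or 2 (0.0955), or heterozygous DMSO replicate 1 (0.0806). The largest interactions of the remaining roles were those of Rpa2 at -0.69 and Rrm2 at -0.57.

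Under THZ1, 48 of the 49 genes were called lower in null than in heterozygous cells and 1 higher, beside 58.1% and 25.1% of all tested genes. The median log2 difference was -1.18 over the replication genes and -0.28 over all tested genes. Scaling by median of ratios gave a replication median of -0.89 and an all-gene median of -0.0048. Then 47 replication genes were lower and 1 higher, Orc3 no longer being called. Of all 10731 tested genes, 4410 were called lower and 4347 higher under that scaling. Rfc4 in null THZ1 cells averaged 14.6% of its level in heterozygous THZ1 cells (-2.63 ± 0.06 SE, limma adjusted p = 1.52e-12). Cdc45 stood at 17.2%, Prim1 at 18.8% and Mcm10 at 19.8% of the heterozygous mean. Orc4 was again the one gene called higher in the null line (0.31 ± 0.07 SE, limma adjusted p = 0.000813). This comparison shares its samples with those above and adds no independent evidence to them.

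Because subunits of 1 complex moved apart, the ratio of their FPKM values was taken within each library, where scaling between libraries cancels. In each of 9 complexes the subunit with the lowest change by THZ1 in null cells was set over the one with the highest. These pairs were chosen from these values, so the ratios are a description with no test. Prim1 over Prim2 was 0.574 and 0.660 in null THZ1, 1.62 and 1.68 in null DMSO, 1.71 and 1.64 in heterozygous THZ1 and 1.87 and 1.82 in heterozygous DMSO libraries. The primase ratio was close between the lines until THZ1 was given to null cells, where it turned below 1. Rfc4 over Rfc1 was 0.322 in both null THZ1 libraries, 0.988 and 0.840 in null DMSO, 1.44 and 1.54 in heterozygous THZ1 and 1.81 and 1.78 in heterozygous DMSO libraries. In the clamp loader the ratio was thus lower in null DMSO cells already and lower again with THZ1. Orc5 over Orc4 showed the same order, with 0.309 and 0.351 in null THZ1, 0.590 and 0.656 in null DMSO, 1.21 and 1.01 in heterozygous THZ1 and 1.10 and 1.15 in heterozygous DMSO libraries.

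Rpa2 over Rpa1 was 0.128 and 0.145 in null THZ1, 0.244 and 0.230 in null DMSO, 0.239 and 0.240 in heterozygous THZ1 and 0.212 and 0.251 in heterozygous DMSO libraries. Here the null DMSO and both heterozygous groups overlapped, and null THZ1 stood apart. Mcm6 over Mcm7 averaged 0.258 in null THZ1, 0.403 in null DMSO, 0.515 in heterozygous THZ1 and 0.523 in heterozygous DMSO cells. Rrm2 over Rrm1 averaged 1.83 in null THZ1, 2.70 in null DMSO, 3.37 in heterozygous THZ1 and 3.32 in heterozygous DMSO cells. The lowest mean ratio was that of null THZ1 cells in all 9 complexes. Choosing pairs by the THZ1 change in null cells sets null THZ1 below null DMSO in advance. Polymerase epsilon was not among the 9 and did not show that order. Pole and Pole2 averaged 8.06 and 7.26 FPKM in null THZ1 and 20.51 and 18.8 in heterozygous THZ1 cells, where Pole over Pole2 was slightly lower.

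**Figure D4:**
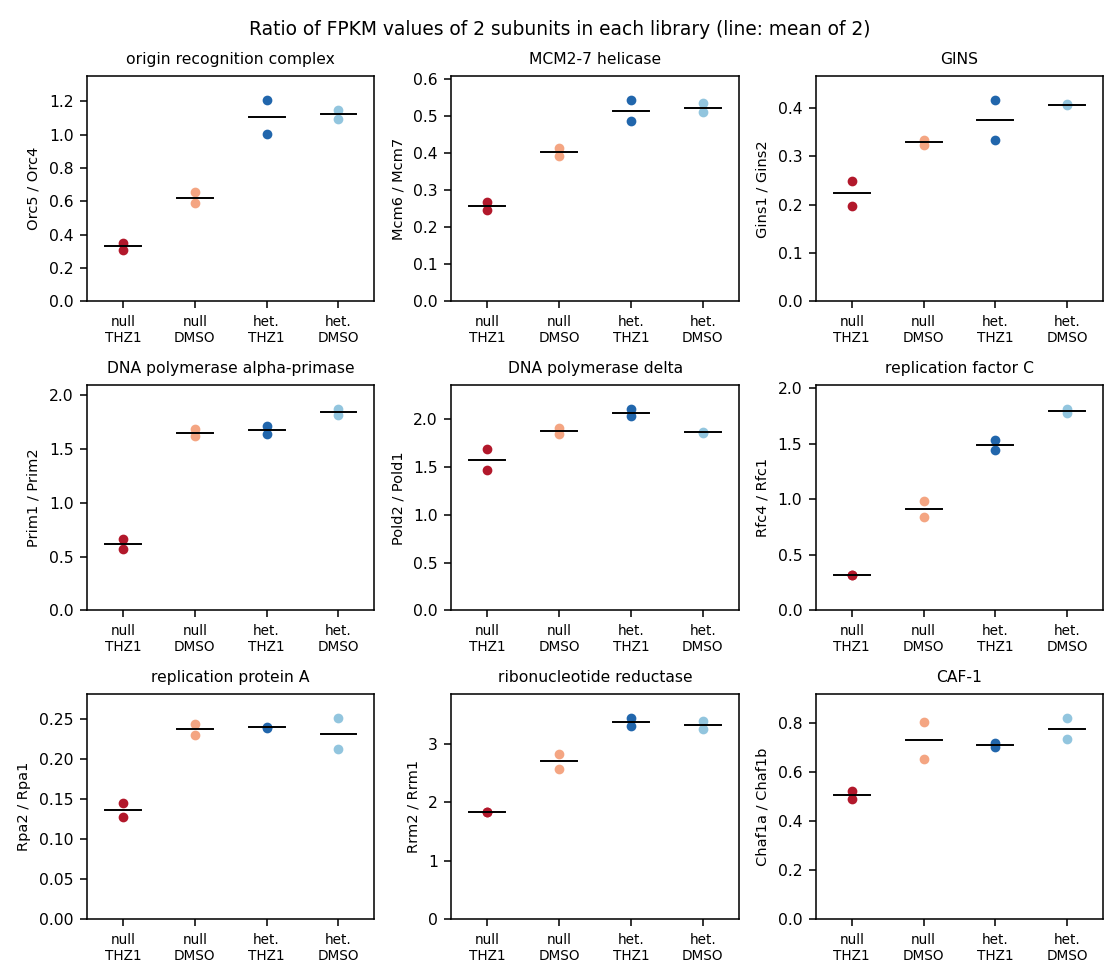
Ratio of the FPKM values of 2 subunits in each library for 9 complexes, with points for libraries, a line at the mean of 2 and axes starting at 0. The ratios are lowest in null THZ1 libraries, with Prim1 over Prim2 at 0.574 and 0.660 there and between 1.62 and 1.87 in the other 6 libraries.

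The E2F letter forms can be set beside these values as a description. Under DMSO the median log2 difference of null minus heterozygous cells was -0.98 over the 16 genes with a form and -0.85 over the 25 genes with a window but no form. The change by THZ1 in null cells had a median of -0.17 over the 16 and -0.45 over the 25 as deposited. Rfc4, Cdc45, Mcm10, Prim1, Chaf1a and Orc5, picked above for the most negative interactions, are among the 25 genes with a window but no form. Those 25 are most of the 41 genes with a window. Both sets overlapped widely, from -0.61 to 0.38 with a form and from -1.16 to 0.23 without one, and no test was made. Across the 49 genes the span of the gene on the chromosome had a Spearman rho of 0.07 with the change by THZ1 in null cells, and the mean level one of 0.28. These are descriptions across genes that share libraries.

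Genes that work beside the 49 were counted from lists chosen by function, also with earlier results of these data known. Their counts for null against heterozygous cells under DMSO stand beside 41.0% of all tested genes called lower and 29.0% higher. Of 20 further initiation and fork genes all 20 were lower in null cells. Dtl, the ligase adaptor that targets Cdt1 for destruction, differed by -1.38, and the fork protection factor Timeless by -1.12. Of 11 genes of polymerase support and maturation 8 were lower and 3 not called, led by the topoisomerase Top2a at -1.36 and the nuclease Dna2 at -0.74. Of 8 deoxynucleotide genes 6 were lower, led by Shmt1, a folate cycle enzyme, at -1.10. Samhd1, which degrades deoxynucleotides, was the single higher one at 0.87. Of 10 chromatin and histone supply genes 9 were lower, led by the histone chaperone Asf1b at -1.01 and the remodeller Hells at -0.95. Of 23 E2F, pocket protein and S-phase cyclin genes 15 were lower, led by E2f8 at -1.28, an atypical E2F that represses transcription, and Mybl2 at -1.16. The single higher one there was Cdkn1a, the CDK inhibitor p21, at 0.50.

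For the interaction, as deposited, the shares of all tested genes were 45.1% negative and 15.1% positive, and several lists lay near them. The lists held 14 negative of the 20 initiation and fork genes, with the other 6 not called, led by Dscc1 at -1.07 and Chtf8 at -1.03. Both encode subunits of an alternative clamp loader. Of the 11 support and maturation genes 5 were negative and 1 positive, led by Poldip2 at -1.14 and Top2a at -0.66. Of the 8 deoxynucleotide genes 2 were negative and 2 positive, led by the reductase subunit Rrm2b at -0.69 and the nucleoside diphosphate kinase Nme1 at 0.28. Of the 10 chromatin genes 5 were negative and 1 positive, led by Asf1b at -0.85 and Hells at -0.61. Of the 23 E2F and cyclin genes 14 were negative and 1 positive, led by Lin37, a subunit of the MuvB core of the DREAM complex, at -1.22 and Ccna2, cyclin A2, at -0.77. The positive one was again Cdkn1a at 0.23. It averaged 512.5 ± 13.6 FPKM in null THZ1, 381.7 ± 5.64 in null DMSO, 308.5 ± 1.59 in heterozygous THZ1 and 268.9 ± 12.7 in heterozygous DMSO cells (SD, n = 2 each). With median-of-ratios scaling the negative and positive counts were 5 and 2, 4 and 3, 1 and 3, 3 and 4, and 9 and 5 in the order of these lists, beside 29.1% and 32.4% of all tested genes. Samhd1 and Cdkn1a were named after their values were seen.

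Some members could hold reads of a neighbour. The handling of strand and of shared reads is not given in the sources used here, and 14 of the 49 genes overlap a protein-coding gene in RefSeq. They include Rfc4, which overlaps Eif4a2, and Cdc45, which overlaps Ufd1. The others are Lig1, Mcm7, Pold2, Orc1, Orc3, Orc4, Rpa1, Chaf1a, Tk1, Fen1, Gins2 and Pole2. The values of all 14 are uncertain to that extent.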

How the data were processed

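Poly(A) RNA was sequenced from 8 libraries, 2 per group, grouped by the labels. The authors deposited 1 FPKM value per gene and library, with Entrez IDs and 2 decimals. Per the submitters' processing notes, Bowtie2, DESeq2 and mm10 were used. No source used here names the counting program, annotation or strand handling. Symbols for 18592 of 18631 genes came from RefSeq (GRCm38.p6).

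The 10731 genes with a mean of at least 1 FPKM were fitted as log2(FPKM + 1) with limma 3.58.1 (R 4.3.3, trend, 1 mean per group, 4 residual degrees of freedom). p-values are two-sided, adjusted by Benjamini-Hochberg, called below 0.05. The labels do not say that replicates were separate cultures, so the spread behind each p-value may be technical. Alternatives were 3 scalings (median of ratios, upper quartile, library total), a pseudocount of 0.1, no filter, a replicate block and leaving out each library.

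The 49 genes, roles and lists were chosen with earlier results of these data known. Library values of the 2 groups compared were printed, per role, for the genes with the largest and smallest difference between lines under DMSO. The same was done for the lowest and highest THZ1 change in null cells. For the gene with the largest interaction of each role the null library values are printed, and the heterozygous ones only for some. From each partner list, the 2 called genes with the largest difference were named, except 1 gene that is not reported here. Complexes and subunit ratios were chosen after the values were seen.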

Additional observations from a re-analysis of the deposited data

Results flagged for a closer look

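The response to THZ1 differed between the lines, by limma's interaction test at an adjusted p below 0.05, in 31 of the 49 genes, 27 of them negative and 4 positive. Among all tested genes 45.1% were negative and 15.1% positive, so the number is near that of genes in general. The log2 values below are the change in null cells minus that in heterozygous cells, as deposited, and no explanation was tested.

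Among the licensing genes the difference was -0.86 for Orc5, -0.44 for Orc2, -0.36 for Gmnn and -0.28 for Orc3. Among the helicase genes it was -0.95 for Mcm10, -0.91 for Cdc45, -0.60 for Gins1, -0.52 for Gins3, -0.46 for Gins4, -0.34 for Mcm6 and -0.24 for Gins2, and 0.27 for Mcm7. Among primase and polymerases it was -0.90 for Prim1, -0.56 for Pola2, -0.52 for Pold2, -0.50 for Pold3, -0.31 for Pole and -0.26 for Pole2, and 0.30 for Prim2. Prim1 and Prim2, subunits of 1 enzyme, stood on opposite sides.

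Among clamp, loader and joining genes it was -0.94 for Rfc4, -0.73 for Rfc5, -0.38 for Fen1, -0.37 for Rfc3 and -0.37 for Rfc2, and 0.24 for Lig1 and 0.19 for Rfc1. It was -0.69 for Rpa2, -0.57 for Rrm2 and -0.51 for Tk1. For CAF-1 it was -0.92 for Chaf1a and -0.57 for Chaf1b. With median-of-ratios scaling Mcm6, Gins2, Gmnn, Orc3, Pole, Pole2, Rfc2 and Rfc3 were no longer called. With single libraries left out, the calls of Gins2 and Orc3 were each lost in 4 cases, that of Rfc1 in 5 and that of Pole2 in 3, at adjusted p values up to 0.155 for Gins2, 0.0891 for Orc3, 0.105 for Rfc1 and 0.0703 for Pole2.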

How the results depend on the processing

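Counts of replication genes called in null against heterozygous cells under DMSO were 46 lower and 1 higher as reported and under all alternatives but 1. Under the replicate block 47 were lower, Orc1 joining at -0.20 with an adjusted p of 0.0445. Whether replicate numbers pair the samples is not known. Deviations of same-numbered libraries correlated at -0.094 to 0.139 between groups, which cannot settle it with 2 libraries per group. The block changed no other call. Scaling by median of ratios, THZ1 in null cells gave 15 replication genes higher instead of 6, and the interaction 10 positive instead of 4. For THZ1 in heterozygous cells the count lower was 1 instead of 2 without a filter and 0 to 2 with a library left out. The count higher was 1 instead of 2 under each of the 3 scalings (library total, upper quartile, median of ratios) and 0 to 2 with a library left out. Both were 0 without heterozygous THZ1 replicate 1, and at least 1 of them was 1 without heterozygous THZ1 replicate 2 or either heterozygous DMSO replicate.

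By median of ratios the sign turned for 13 of the 49 changes by THZ1 in null cells and 12 of the interactions. Among genes called under at least 1 of the scalings, the change in null cells turned to 0.11 for Mcm2, 0.14 for Mcm4, 0.18 for Mcm5, 0.18 for Cdc6, 0.0042 for Orc6, 0.0031 for Pole2, 0.20 for Rpa3, 0.21 for Rrm1 and 0.0811 for Uhrf1, and the interaction of Mcm4 to 0.18. That scaling moved the all-gene median of the THZ1 change in null cells to 0.03, as against -0.17. Some calls for THZ1 in null cells were lost with 1 library left out: Gmnn without null THZ1 replicate 1 (adjusted p 0.105), Pole2 without null DMSO replicate 1 (0.0630), and Uhrf1 without null DMSO replicate 2 (0.120) or null THZ1 replicate 2 (0.0630). With 2 libraries per group, spread rests on 4 residual degrees of freedom, and FPKM values hold no counts, so counting error is unknown.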
